A study of Mus musculus with 33 samples.

Results

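The oocyte transcription factors described here are 8 genes, Figla, Nobox, Lhx8, Sohlh1, Sohlh2, Taf4b, Tbpl2 and Pou5f1, and they are 8 of the 35321 genes counted in single mouse oocytes. They are the rows of the deposited count table that carry these gene symbols, a rule that refers to names and not to expression values. The study asked what the loss of NALP5, the Nlrp5 product and a core protein of the subcortical maternal complex, does to germinal vesicle (GV) oocytes. Each library holds the polyadenylated RNA of 1 oocyte taken from the ovary of a 3-week-old female on a C57BL6/Babr background. There were 10 Nlrp5+/+ oocytes, 16 Nlrp5+/- oocytes and 7 Nlrp5-/- oocytes. The mutant allele is a frameshifting deletion made with CRISPR/Cas9, and it is carried in the germline, so that every cell of a Nlrp5-/- female is mutant and not only the oocytes. According to the methods, the Nlrp5-/- and Nlrp5+/- females were littermates, whereas the Nlrp5+/+ females usually came from the colony of origin.

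GV oocytes mature from a non-surrounded nucleolus (NSN) state, in which transcription is active, to a surrounded nucleolus (SN) state, in which chromatin encircles the nucleolus and transcription has largely ceased. The stage of each oocyte is not in the sample labels and was taken from the staging heatmap of the study, which was inferred from a list of 164 stage marker genes in these same libraries. None of the 8 genes is in that list. The Nlrp5+/+ oocytes divide into 4 NSN and 6 SN cells, the Nlrp5+/- oocytes into 9 and 7, and the Nlrp5-/- oocytes into 4 and 2. The text of the study counts fewer Nlrp5+/- oocytes per stage than its heatmap marks, and the heatmap was followed. Nlrp5-/- oocyte number 15 had no stage and is given apart. The labels name no mouse, so the oocytes of a genotype and stage were treated as 1 sample. No test was made between groups, and each SD describes the spread between cells only.

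The factors fall into families with different parts in the making of an oocyte. Figla, Sohlh1 and Sohlh2 encode basic helix-loop-helix proteins, which pair with a partner and bind the E-box, and Figla is known for its need in primordial follicle formation and for driving the zona pellucida genes. Nobox and Lhx8 encode homeodomain proteins of early folliculogenesis, and Pou5f1 encodes OCT4, the POU factor that both germ cells and pluripotent cells use. Taf4b and Tbpl2 act at the core promoter. Taf4b encodes a gonad-enriched relative of the TFIID subunit TAF4, and Tbpl2 encodes the TBP paralogue that takes the place of TBP in transcription of growing oocytes. Sohlh1 and Sohlh2 are known from the primordial and primary follicle, that is, from oocytes younger than those collected here.

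The promoters of the 8 genes were searched because several of these factors are themselves E-box proteins. The table of RefSeq promoters on GRCm38.p6, the build of the deposited gene coordinates, was matched for 7 of the genes by symbol, with 8 start sites in all, since Pou5f1 has a further one. The 250 bases before the start were read on the coding strand. The E-box was searched as CANNTG, which reads the same on both strands, and the other motifs, on both strands, were TAATTG for NOBOX, TGATTG for LHX8, ATGCAAAT for the octamer of POU proteins and TATAAA for the TATA box. Sohlh1 had 5 E-boxes, Tbpl2 had 4 and Figla and Nobox had 2 each. The start sites of Pou5f1 had 1 and 2, Sohlh2 had 1 and Lhx8 had none. Of 32851 promoters in the table, 66.2% held an E-box, 3.84% held at least 4 and 1.15% held at least 5. None of the 8 start sites had a match to any of the other 4 motifs, which were present in 7.17%, 12.7%, 1.60% and 12.4% of promoters in the order given. 3 promoters are printed, those with the most E-boxes and that of the most abundant factor, with each E-box in capitals.
Tbpl2, minus strand, chr2:24096596-24096845: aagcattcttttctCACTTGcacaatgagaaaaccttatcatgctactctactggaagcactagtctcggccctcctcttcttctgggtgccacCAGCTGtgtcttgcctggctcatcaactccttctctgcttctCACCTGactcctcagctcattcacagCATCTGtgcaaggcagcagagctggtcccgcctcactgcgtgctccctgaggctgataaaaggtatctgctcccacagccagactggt
Sohlh1, minus strand, chr2:25847249-25847498: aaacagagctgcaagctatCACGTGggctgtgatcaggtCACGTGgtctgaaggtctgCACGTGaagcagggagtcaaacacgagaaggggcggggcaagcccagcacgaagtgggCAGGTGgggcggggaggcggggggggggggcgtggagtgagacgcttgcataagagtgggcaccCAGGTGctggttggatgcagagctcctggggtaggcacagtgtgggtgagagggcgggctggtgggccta
Nobox, minus strand, chr6:43309555-43309804: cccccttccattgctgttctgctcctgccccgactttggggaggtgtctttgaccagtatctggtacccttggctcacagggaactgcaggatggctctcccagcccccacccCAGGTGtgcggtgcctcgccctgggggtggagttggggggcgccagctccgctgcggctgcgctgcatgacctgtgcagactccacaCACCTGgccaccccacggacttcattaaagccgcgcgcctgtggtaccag
In the Sohlh1 promoter the 3 farthest E-boxes, which begin 231, 211 and 192 bases before the start, all read CACGTG. In the Tbpl2 promoter the E-boxes begin 236, 156, 114 and 88 bases before the start. A match is a description of the sequence, and binding was not measured.

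The targeted gene was examined first as a check of the labels. Nlrp5 had between 10114 and 29131 normalized counts in the Nlrp5+/+ oocytes, between 5062 and 13472 in the Nlrp5+/- oocytes and between 1362 and 2556 in the Nlrp5-/- oocytes. The Nlrp5-/- oocytes lay below all others, and the other groups overlapped. Normalized counts are read counts divided by a size factor for each library, so they are relative within a library, and less RNA of a gene cannot be told apart from more RNA of the others. Libraries held between 4223595 and 15573360 counts on genes. The 8 oocyte markers examined, among them Gdf9, Zp3 and Ddx4, summed to between 16853 and 31667 CPM in each library, where CPM are counts scaled to an equal library total. The full list of 16 granulosa cell markers summed to between 281 and 475 CPM in Nlrp5+/+, 306 and 427 in Nlrp5+/- and 288 and 1637 in Nlrp5-/- oocytes. Of its defining genes, Amh and Foxl2 had no count in Nlrp5+/+ NSN oocytes, whereas Fshr and Cyp19a1 had counts in 4 of 4, the latter between 60.8 and 409 normalized counts, and Inha and Gja1 in 3 of 4. A list of 9 theca and interstitial markers summed to between 5.26 and 23.3, 9.84 and 328, and 14.7 and 695 CPM in the same order, and 11 markers of stroma, vessel and blood to between 45.9 and 81.1, 57.6 and 96.8, and 76.4 and 259.8. Of the granulosa cell markers, the 12 with a mean under 50 normalized counts in Nlrp5+/+ oocytes summed to between 1.88 and 14.5 CPM in Nlrp5+/+, 2.81 and 30.2 in Nlrp5+/- and 11 and 379.8 in staged Nlrp5-/- oocytes, and to 1229 in oocyte 15. These 12 were chosen for their low level in Nlrp5+/+ oocytes, so their low sum there follows in part from the choice. Over all 16, Nlrp5-/- oocytes ran from 288 to 746 CPM at the NSN stage and from 329 to 424 at the SN stage. By the sum of the 12, the highest staged oocytes were numbers 14, 13 and 7, all Nlrp5-/-. Each first index of the libraries occurred with 1 genotype only, so that genotype and index cannot be told apart.

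**Figure D1:**
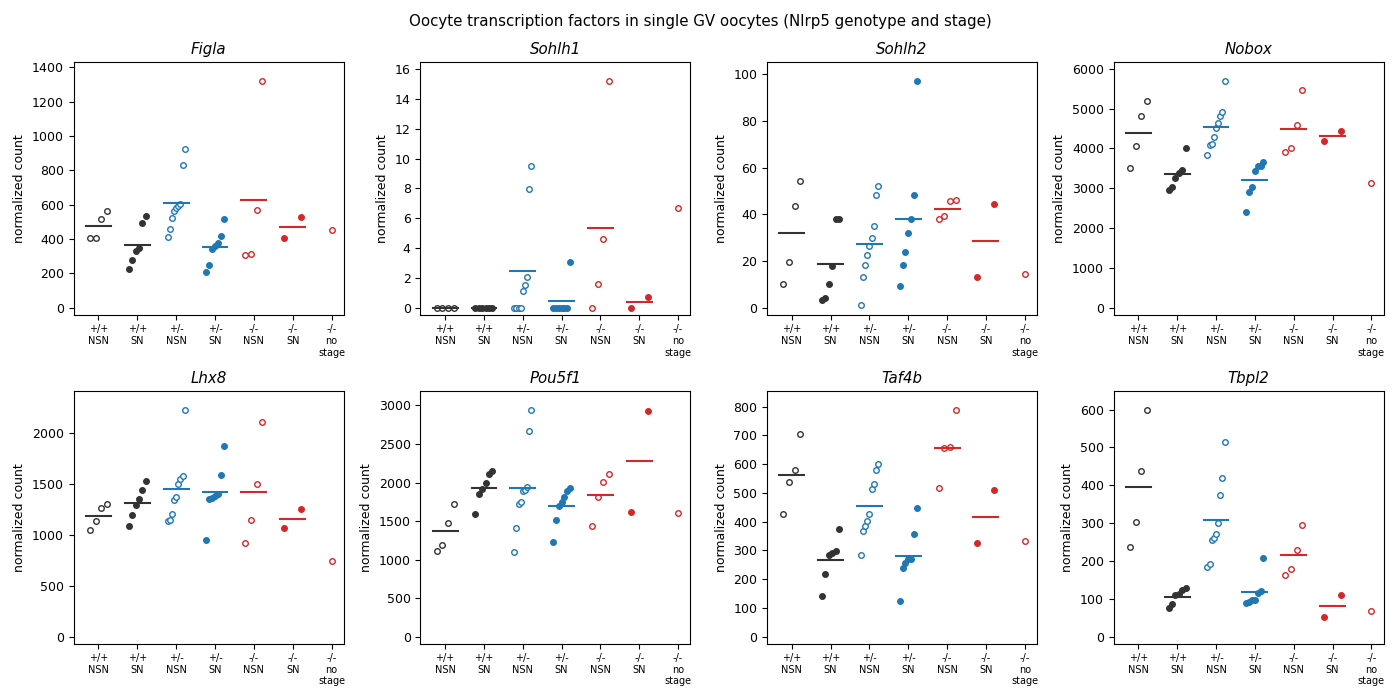
Normalized counts of each of the 8 genes (vertical axes, linear) in single oocytes grouped by Nlrp5 genotype and stage. Points are oocytes, open at the NSN stage or without a stage and filled at the SN stage, and lines are means. Tbpl2 in Nlrp5+/+ oocytes lay between 238 and 600.2 at the NSN stage and between 75.1 and 129 at the SN stage, and Sohlh1 was at 0 in every Nlrp5+/+ oocyte.

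The members covered a wide range of levels. Levels between genes were compared per kb of the Ensembl canonical transcript. Nobox was the most abundant, with 2095 ± 415 normalized counts per kb (SD, n = 33 oocytes), which placed it at percentile 98.5 of 13817 genes. Pou5f1 had 1217 ± 293, Lhx8 had 776 ± 178 and Figla had 638 ± 285. The core promoter pair was less abundant, with 152 ± 99.3 for Tbpl2 and 59.8 ± 23.8 for Taf4b, the latter at percentile 51.4. Sohlh2 had 12.5 ± 8.19 and Sohlh1 had 1.19 ± 2.51. Most steps in this order held within single oocytes. Nobox exceeded Pou5f1 in 32 of 33 oocytes, Pou5f1 exceeded Lhx8 in 30, Tbpl2 exceeded Taf4b in 32 and Taf4b exceeded Sohlh2 in 32. Lhx8 and Figla were the neighbours that did not separate, since Lhx8 was the higher in 23 of 33 oocytes only. With the union of all annotated exons as the length, Lhx8 had 398 and ranked below Figla at 579, and Pou5f1 at 586 was close to Figla.

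**Figure D2:**
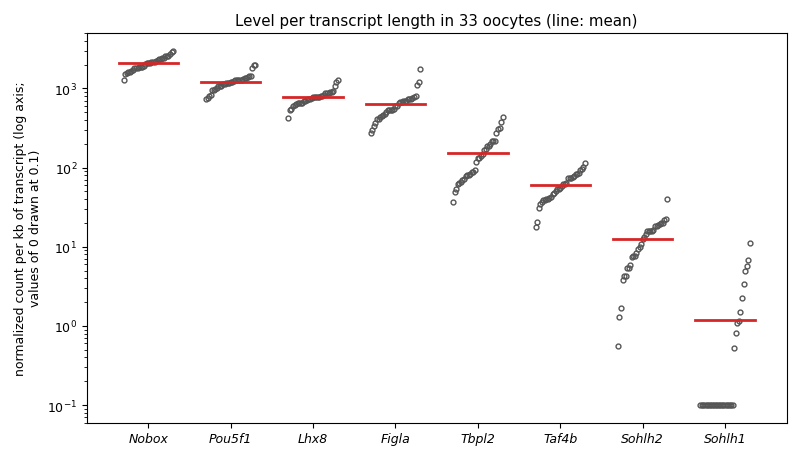
Normalized count per kb of transcript (vertical axis, log scale, with values of 0 drawn at 0.1) for the 8 genes in all 33 oocytes. Points are oocytes in order of level and red lines are means, which run from 2095 for Nobox to 1.19 for Sohlh1.

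Of the 7 members that passed the filter on low values, Tbpl2 had the largest log2 fold change between the stages in each genotype. In Nlrp5+/+ oocytes it had 238, 303, 438 and 600.2 normalized counts at the NSN stage. At the SN stage it had 75.1, 85.7, 109, 112, 122 and 129. All 6 SN oocytes lay below all 4 NSN oocytes, and the means of 395 ± 160.3 and 106 ± 21.0 gave a log2 fold change of SN over NSN of -1.89, or 3.72-fold lower. The fold change is taken on means plus a pseudocount of 1. It ranked at percentile 2.45 of the 13576 genes with a mean of at least 10 normalized counts, and it lay between -2.07 and -1.62 when any 1 oocyte was left out. In Nlrp5+/- oocytes Tbpl2 ran from 185 to 515 with a median of 271 at the NSN stage and from 89.1 to 208 with a median of 98.3 at the SN stage, a log2 fold change of -1.39. Only SN oocyte 55, at 208, reached into the NSN range. In Nlrp5-/- oocytes the NSN values were 164, 180.0, 228 and 296 and the SN values were 51.3 and 110.0, again without overlap, with a log2 fold change of -1.42. With so few SN oocytes this value rested on each of them, and it was -0.97 without oocyte 7 and -2.06 without oocyte 31. Without oocyte 7 the largest was that of Sohlh2, at -1.62.

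Taf4b was also lower at the SN stage in each genotype, by less. In Nlrp5+/+ oocytes it had 427, 538, 581 and 705 normalized counts at the NSN stage and 141, 217, 283, 289.7, 298 and 374 at the SN stage. The stages did not overlap, and the means of 562 ± 115 and 267 ± 79.3 gave a log2 fold change of -1.07. That value was -0.94 without NSN oocyte 79 and also without SN oocyte 85, and -0.96 with medians over oocytes, so its place past 2-fold depended on single cells and on the average used. In Nlrp5+/- oocytes Taf4b ran from 283 to 601 with a median of 427 at the NSN stage and from 124 to 446 with a median of 270.1 at the SN stage. These ranges overlapped, with a log2 fold change of -0.70. In Nlrp5-/- oocytes it had 518, 657, 660.3 and 790.0 at the NSN stage and 325 and 511 at the SN stage, with no overlap and a log2 fold change of -0.65, which was -1.01 without oocyte 31 and -0.36 without oocyte 7.

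Counted over the list, 2 of the 7 members that reached a mean of 10 normalized counts were at least 2-fold lower in Nlrp5+/+ SN oocytes, where 8.82% of all such genes were. The 2 were Taf4b and Tbpl2, and they were also the 2 whose stages did not overlap, which was so for 6.07% of genes on the lower side. In Nlrp5-/- oocytes the same pair did not overlap, where this was so for 10.8% of genes. Tbpl2 was the only member past 2-fold in Nlrp5+/- oocytes, where 7.21% of genes were lower by that much, and in Nlrp5-/- oocytes, where 11.4% were. No member was 2-fold higher in any genotype, beside 3.97%, 2.02% and 3.32% of genes, and no member was higher without overlap, beside 3.73%, 0.514% and 9.47%. Sohlh1 was the member below the filter. The median log2 fold change over all 8 members was -0.38 in Nlrp5+/+, -0.60 in Nlrp5+/- and -0.48 in Nlrp5-/- oocytes, beside medians of all genes of 0.03, -0.05 and -0.05. The contrast between the stages was also read within the libraries that share a first index, of which 6 held both stages. Tbpl2, Taf4b and Figla had the lower mean in SN oocytes in 6 of 6 of them, with log2 values from -2.40 to -0.41, from -1.52 to -0.02 and from -0.58 to -0.09. This was so for 9.51% of the 13896 genes with a mean of at least 10 over all oocytes. Nobox was lower in 5 of 6, and Lhx8, Sohlh2 and Pou5f1 were each lower in 3 and higher in 3.

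**Figure D3:**
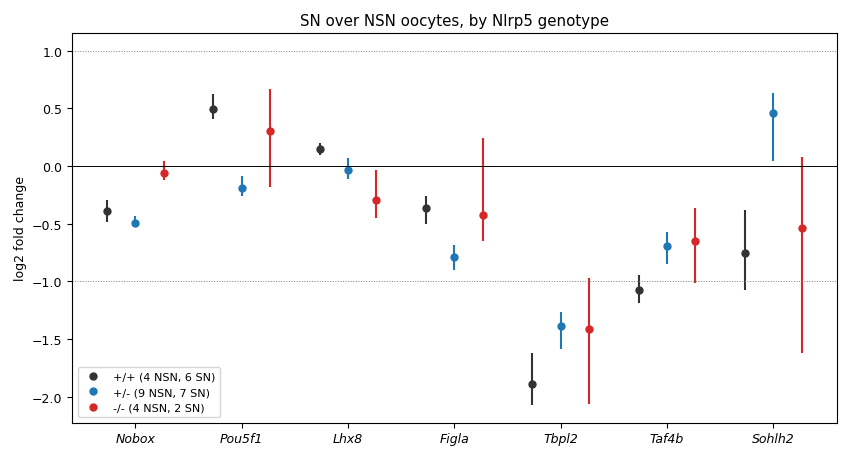
Log2 fold change of SN over NSN oocytes (vertical axis) for the 7 members above the filter in each Nlrp5 genotype. Points are the values over all oocytes, vertical lines run from the lowest to the highest value with 1 oocyte left out, and dotted lines mark 2-fold. Tbpl2 lay past 2-fold in each genotype, at -1.89, -1.39 and -1.42, while Lhx8 lay at 0.15, -0.03 and -0.29.

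The 2 core promoter genes were set against the widely expressed relatives they can replace. Tbp, the general TATA-binding protein, had 1246 ± 243 normalized counts before and 1209 ± 150 after the transition in Nlrp5+/+ oocytes, so it did not share the difference seen for Tbpl2. Per kb, the level of Tbpl2 was above that of Tbp in 4 of 4 Nlrp5+/+, 9 of 9 Nlrp5+/- and 4 of 4 Nlrp5-/- NSN oocytes, with ratios between 1.37 and 5.02. At the SN stage it was above Tbp in 1 of 6, 1 of 7 and 0 of 2 oocytes, with medians of 0.84, 0.81 and 0.73. The place of the ratio above or below 1 depends on the length used, though its difference between oocytes does not. With the union of all exons as the length, Tbpl2 was above Tbp in 17 of 17 NSN and 7 of 15 SN oocytes, and in normalized counts without division by length it was above Tbp in 0 of 17 and 0 of 15, a comparison added after the data were seen. Taf4b exceeded Taf4 per kb in 4 of 4 Nlrp5+/+ NSN oocytes and in 1 of 6 SN oocytes, with ratios of means of 1.70 and 0.75. In Nlrp5+/- oocytes it did so in 7 of 9 and 1 of 7. Without division by length it exceeded Taf4 in 17 of 17 NSN and 12 of 15 SN oocytes. Both Nlrp5-/- SN oocytes had a ratio per kb above 1, at 1.80 and 2.71, above every other SN oocyte. In those oocytes Taf4 had 75.6 and 179 normalized counts, beside 151 to 349.8 in the Nlrp5+/+ SN oocytes.

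The other genes of the core promoter machinery, 19 in the list, all passed the filter, and none was past 2-fold in Nlrp5+/+ SN oocytes, where 12.8% of all genes were. The median of their log2 fold changes was 0.03. Gtf2a1l, which encodes the germ cell form of the TFIIA large subunit, was the only one whose stages did not overlap, with 1415 ± 209 normalized counts in NSN and 811 ± 171 in SN oocytes (log2 -0.80), beside 6.07% of all genes without overlap on the lower and 3.73% on the higher side. Tbpl1, a further TBP relative, had 74.5 ± 60.8 and 37.8 ± 22.7 (log2 -0.96), with overlapping values. Its difference rested on oocyte 79, without which the log2 fold change was -0.26, and it was -0.32 with medians over oocytes. In the other direction, it was past 2-fold without oocyte 70, 87, 69, 85 or 86, at -1.22 without oocyte 87, and at -1.04 with total count scaling. At the other end, Gtf2a2 and Taf9, encoding the small TFIIA subunit and a TFIID subunit, had log2 fold changes of 0.51 and 0.45 within overlapping ranges. Gtf2a1l was also lower in Nlrp5+/- SN oocytes without overlap (log2 -0.77), as were 0.823% of all genes. In Nlrp5-/- oocytes its log2 fold change was -0.03, since the 2 SN oocytes had 1148 and 1591, above all Nlrp5+/+ SN oocytes, which ran from 631 to 1115.

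**Figure D4:**
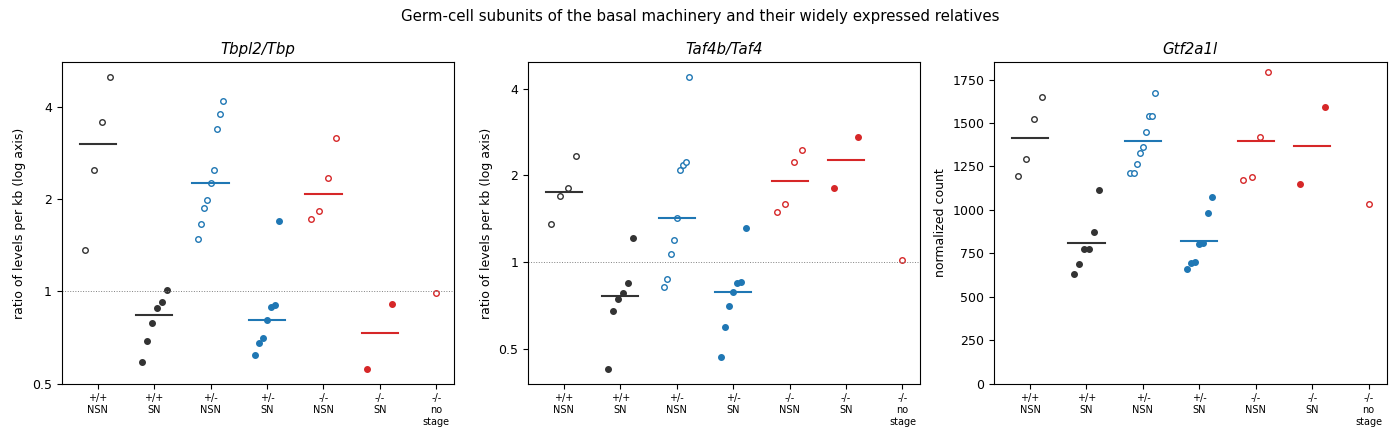
Left and centre, ratio of Tbpl2 to Tbp and of Taf4b to Taf4 per kb of transcript (vertical axes, log scale) in each oocyte, with lines at the medians and a dotted line at 1. Right, normalized counts of Gtf2a1l with lines at the means; points are open at the NSN stage or without a stage and filled at the SN stage. Per kb, Tbpl2 exceeded Tbp in every NSN oocyte, and the 2 Nlrp5-/- SN oocytes had the highest Taf4b to Taf4 ratios of the SN oocytes, at 1.80 and 2.71.

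Nobox, the homeodomain factor at the highest level, differed between the stages in Nlrp5+/+ and Nlrp5+/- oocytes by less than 2-fold. Nlrp5+/+ NSN oocytes had 3504, 4068, 4805 and 5202 normalized counts, and SN oocytes had 2966, 3028, 3269, 3388, 3469 and 4008. The ranges touched, since the highest SN oocyte exceeded the lowest NSN oocyte, and the log2 fold change was -0.39. In Nlrp5+/- oocytes it ran from 3830.2 to 5706 with a median of 4505 at the NSN stage and from 2395 to 3648 with a median of 3424 at the SN stage. These 9 and 7 oocytes did not overlap (log2 -0.50), which held for 0.823% of genes on the lower side. In Nlrp5-/- oocytes the NSN values were 3921, 4013, 4589 and 5459.7 and the SN values were 4181 and 4429, which lay inside the NSN range (log2 -0.06). Nobox also varied little between cells of a group. Its SD within groups was 0.20 on the log2 scale, at percentile 5.81 of 310 genes of like level. Figla stood at the other end, with an SD of 0.50 and percentile 81.8 of 2404 genes.

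Figla, the activator of the zona pellucida genes, was lower on average in SN oocytes with wide overlap. Nlrp5+/+ NSN oocytes had 407, 408, 518 and 564 normalized counts and SN oocytes had 226, 276, 330.4, 347, 494 and 535 (log2 -0.36). Nlrp5+/- oocytes ran from 409.5 to 926 with a median of 582 at the NSN stage and from 208 to 517 with a median of 359 at the SN stage (log2 -0.79). The Nlrp5-/- NSN oocytes had 308, 313, 567 and 1323, and the SN oocytes 409 and 528. The highest, oocyte 14, is also the staged oocyte with the most granulosa marker counts, at 379.8 CPM. The log2 fold change of -0.42 in Nlrp5-/- oocytes became 0.24 without it.

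The zona pellucida genes and other oocyte genes known to depend on the members were a list of 15. None was past 2-fold in Nlrp5+/+ SN oocytes, where 12.8% of all genes were. Their log2 fold changes lay above 0 for 9 and below 0 for 6, with a median of 0.13 beside 0.03 for all genes. The lowest were Nlrp14, with 67029.8 ± 26671 normalized counts in NSN and 44609 ± 7248 in SN oocytes (log2 -0.59), and the zona pellucida gene Zp2 (log2 -0.50), both with overlap. The highest were H1f8, the oocyte linker histone, at 0.61, and Rfpl4, at 0.81, and in both the stages did not overlap, as in 3.73% of all genes on the higher side. Zp1 and Zp3 had log2 values of 0.19 and -0.14.

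Lhx8 and Pou5f1 did not share the lower values either. Lhx8, which acts early in the primordial follicle, had 1044, 1137, 1265 and 1299 normalized counts in Nlrp5+/+ NSN oocytes and ran from 1091 to 1532 with a median of 1319.6 in SN oocytes (log2 0.15). Its log2 fold change was -0.03 in Nlrp5+/- and -0.29 in Nlrp5-/- oocytes, always with overlap. Pou5f1 had 1113, 1192, 1471 and 1719 in Nlrp5+/+ NSN oocytes. The SN oocytes had 1592, 1852, 1917, 1996, 2110.0 and 2143. All but the lowest SN oocyte lay above all NSN oocytes (log2 0.49). The sign was not shared, since the log2 fold change was -0.19 in Nlrp5+/- oocytes and 0.30 in Nlrp5-/- oocytes, the latter becoming -0.18 without oocyte 7. Pou5f1 spans chr17:35506018-35510772 on the plus strand of GRCm38, and Gm19553 lies inside it on the minus strand, chr17:35509077-35510551. The library method does not mark strand, so reads of the pair cannot be told apart, and their levels had a Pearson r of 0.97 over the 33 oocytes.

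The dimer partners and pluripotency factors were a list of 15, of which 12 passed the filter in Nlrp5+/+ oocytes. Zfp42, the pluripotency marker REX1, and Tcf12, a broadly expressed helix-loop-helix partner, were the 2 past 2-fold, both lower at the SN stage, as were 8.82% of all genes. Zfp42 had 21.9 ± 8.62 and 2.93 ± 2.40 normalized counts (log2 -2.54, without overlap, as in 6.07% of all genes on the lower side, and -1.76 with a pseudocount of 5), and Tcf12 had 241 ± 81.1 and 117 ± 28.6 (log2 -1.04, with overlap, and -0.83, -0.92 and -0.9997 without oocyte 79, 80 or 78). Zfp42 was below the filter in the SN oocytes and passed it only through the NSN oocytes. Its call at the SN stage thus follows in part from the filter. Tcf3, the partner gene that encodes E2A, had 212 ± 60.4 and 212 ± 41.2. At the upper end stood Ldb2 (log2 0.60), a LIM domain cofactor, and Klf17 (log2 0.30), an oocyte-enriched Krüppel-like factor that is itself one of the stage markers.

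Sohlh1 and Sohlh2 were the least abundant members, and Sohlh1 was at the edge of detection. Sohlh2 had a count in every oocyte, between 1.36 and 97.3 normalized counts, and no comparison between the stages separated. Its means were 32 ± 20.6 and 18.6 ± 16 in Nlrp5+/+ NSN and SN oocytes, 27.4 ± 16.2 and 38.1 ± 29.1 in Nlrp5+/- and 42.3 ± 4.18 and 28.8 ± 22.3 in Nlrp5-/- oocytes. Single oocytes moved its log2 fold change of SN over NSN across 2-fold, from -0.75 to -1.07 in Nlrp5+/+ without oocyte 69 or 85, to -1.04 without oocyte 87, where it was -0.38 without oocyte 70, and from -0.54 to -1.62 in Nlrp5-/- without oocyte 7, where it was 0.07 without oocyte 31. Sohlh1 had 0 counts in all 10 Nlrp5+/+ oocytes, out of 104451857 counts in all. A count of 0 allows up to 3 counts, or 0.0287 CPM, for counting error only. It had at least 1 count in 6 of 16 Nlrp5+/- oocytes and in 5 of 7 Nlrp5-/- oocytes. The summed count was 22 in Nlrp5+/- oocytes, or 0.191 CPM (95% Poisson interval 0.120 to 0.290). Such an interval takes reads as independent, whereas the counts fell on few oocytes, and it leaves out the spread between oocytes and mice. No fold derived from it here is a test between genotypes. The lower end of that interval is at least 4.17-fold higher than the limit over the Nlrp5+/+ oocytes. Oocytes 61 and 54 gave 7 counts each, and the value was 2.68-fold without the former, 2.70-fold without the latter and 1.17-fold without both. In Nlrp5-/- oocytes it was 39, or 0.690 CPM (0.491 to 0.943), with a lower end at least 17.1-fold higher, which was 7.46-fold without oocyte 14 and 3.88-fold without oocytes 14 and 15. Oocyte 14 gave 22 of these counts, oocyte 15 gave 8 and oocyte 30 gave 7. Without oocytes 14 and 15, 9 counts were left, and no limit was computed without oocyte 30 as well. Among NSN oocytes the lower end for Nlrp5-/- was at least 8.08-fold higher than the Nlrp5+/+ limit, and at least 2.07-fold higher without oocyte 14. Oocyte 30 gave 7 of the 8 counts then left.

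Sohlh1 counts were set beside the markers of other ovarian cells in each oocyte. The 4 oocytes with the highest theca and interstitial marker sums, numbers 15, 61, 14 and 54 at 695, 328, 243 and 106 CPM, were 4 of the 5 with the most Sohlh1 counts and held 44 of all 61. The other 7 oocytes with a Sohlh1 count had theca and interstitial sums between 9.84 and 31.8 CPM. For the 12 granulosa markers, oocytes 15 and 14 were the highest, with 1229 and 379.8 CPM, and also had the most Sohlh1 counts. Oocytes 13 and 7, with 171 and 115 CPM, had no Sohlh1 count, and 7 Sohlh1 counts were found in Nlrp5-/- oocyte 30 at 11 CPM and in Nlrp5+/- oocytes 54 and 61 at 2.81 and 25.7 CPM. The part of other cells in the Sohlh1 counts was not tested. Most of these counts came from NSN oocytes. Among those were oocytes 14, 61 and 54, with 22, 7 and 7 counts, which also had high theca and interstitial sums. In Nlrp5+/- oocytes 19 counts fell on 5 of 9 NSN oocytes and 3 on 1 of 7 SN oocytes, and in Nlrp5-/- oocytes 30 fell on 3 of 4 NSN oocytes and 1 on 1 of 2 SN oocytes.

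Between genotypes of a stage, no member above the filter differed by 2-fold. That was 0 of 7 for Nlrp5-/- over Nlrp5+/+ at the NSN stage, where 8.14% of genes were past 2-fold in either direction, and at the SN stage, where 10.1% were. It was 0 of 7 for Nlrp5-/- over Nlrp5+/-, where 6.5% and 8.91% of genes were, and for Nlrp5+/- over Nlrp5+/+, where 3.12% and 1.95% were. The medians over the 8 members for Nlrp5-/- over Nlrp5+/+ were 0.32 for NSN and 0.35 for SN oocytes, beside medians of all genes of 0.00099 and -0.0016. The NSN median was 0.18 without oocyte 87, and the SN median was 0.10 without oocyte 7. Placing Sohlh1 at its limit could not change the NSN median, since Sohlh1 was already the highest of the 8 values. For Nlrp5-/- over Nlrp5+/- they were 0.01 and 0.16, and for Nlrp5+/- over Nlrp5+/+ they were 0.17 and 0.09. With single oocytes left out these ran from -0.13 to 0.15, 0.07 to 0.37, 0.13 to 0.23 and -0.05 to 0.15. Over the 7 members above the filter the medians were 0.26 and 0.35 for Nlrp5-/- over Nlrp5+/+, -0.02 and 0.40 for Nlrp5-/- over Nlrp5+/-, and 0.05 and 0.07 for Nlrp5+/- over Nlrp5+/+. These comparisons share oocytes and are given side by side only.

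Nobox was the 1 member whose genotypes did not overlap. The Nlrp5-/- SN oocytes, at 4181 and 4429 normalized counts, lay above all 6 Nlrp5+/+ SN oocytes, of which the highest had 4008, and above all 7 Nlrp5+/- SN oocytes, of which the highest had 3648. The log2 fold changes were 0.36 and 0.42, and no oocyte left out took them outside 0.32 to 0.46. With 2 Nlrp5-/- oocytes such separation was common, at 7.24% and 5.25% of genes on the higher side and 7.85% and 5.81% on the lower. The other comparisons separated fewer genes, at 3.96% higher and 3.14% lower for Nlrp5-/- over Nlrp5+/+ NSN oocytes and 0.476% and 0.686% for Nlrp5-/- over Nlrp5+/-. For Nlrp5+/- over Nlrp5+/+ they were 0.175% and 0.269% in NSN oocytes and 0.0226% and 0.0602% in SN oocytes. At the NSN stage the Nlrp5+/+ mean of 4395 ± 757, the Nlrp5+/- mean of 4544 ± 565 and the Nlrp5-/- mean of 4496 ± 707 differed by less than 1 SD.

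Tbpl2 was the member with the lowest log2 fold change of Nlrp5-/- over Nlrp5+/+ NSN oocytes, with 217 ± 59.2 normalized counts in Nlrp5-/- beside 395 ± 160.3 in Nlrp5+/+ and 308 ± 109 in Nlrp5+/- oocytes. The Nlrp5-/- and Nlrp5+/+ ranges overlapped at 238 to 296, and the log2 fold change of -0.86 ranked at percentile 4.63 of genes. It was -1.05 without oocyte 14 and -1.04 without oocyte 87, both past 2-fold, and -0.59 without oocyte 79. At the SN stage the log2 fold change was -0.38 over Nlrp5+/+ and became 0.06 without oocyte 7 and -1.03 without oocyte 31, and over Nlrp5+/- it was -0.53 and became -1.18 without oocyte 31 and -0.09 without oocyte 7. Oocyte 15, the Nlrp5-/- oocyte without a stage, had 68.1, which lay in the range of the SN oocytes. Taf4b went the other way, with log2 fold changes of Nlrp5-/- over Nlrp5+/+ of 0.22 for NSN and 0.64 for SN oocytes, in overlapping ranges. The NSN value was 0.11 without oocyte 87 and 0.35 without oocyte 79, and the SN value was 0.28 without oocyte 31 and 0.93 without oocyte 7. The remaining members overlapped as well. Figla at the NSN stage had a log2 fold change of 0.40 that became -0.26 without oocyte 14, and Pou5f1 at the SN stage one of 0.23 that became -0.26 without oocyte 7. Sohlh2 in Nlrp5+/- over Nlrp5+/+ SN oocytes came nearest to 2-fold, at 0.997. With single oocytes left out it ran from 0.58 without oocyte 46 to 1.32 without oocyte 69 or 85, and it was also past 2-fold without oocyte 55, 37, 38 or 47. In Nlrp5-/- over Nlrp5+/+ SN oocytes it was 0.60, and it was 1.22 without oocyte 31 and -0.48 without oocyte 7. Over Nlrp5+/- it was -0.39, and it was -1.48 without oocyte 7 and 0.22 without oocyte 31.

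**Figure D5:**
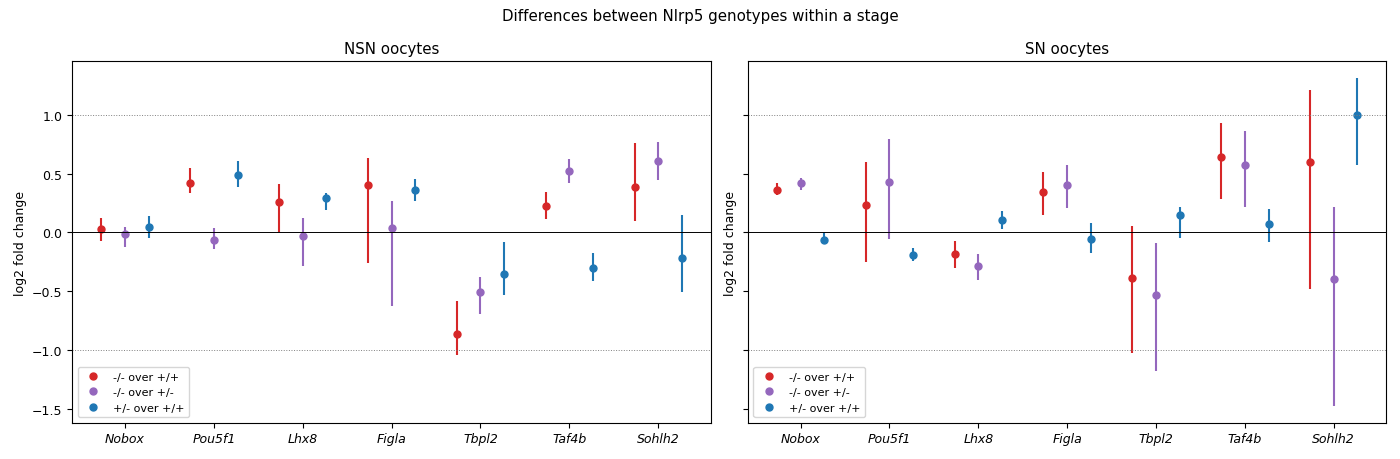
Log2 fold change between Nlrp5 genotypes (vertical axis) within NSN oocytes on the left and SN oocytes on the right for the 7 members above the filter. Points are values over all oocytes, vertical lines run from the lowest to the highest value with 1 oocyte left out, and dotted lines mark 2-fold. Nobox in the SN panel lay at 0.36 and 0.42 for Nlrp5-/- over the other genotypes, and Tbpl2 in the NSN panel at -0.86 over Nlrp5+/+.

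The genes around the members were compared between genotypes as well. In the core promoter list, 1 of 19 genes was past 2-fold in Nlrp5-/- over Nlrp5+/+ NSN oocytes, where 8.14% of all genes were, Tbpl1 at -1.24 in overlapping ranges. At the SN stage 2 of 19 were, beside 10.1% of all genes. Both were lower and without overlap, and of all genes 5.99% were lower by that much and 7.85% were lower without overlap. They were Gtf2a2, with 284 ± 137 normalized counts beside 1043 ± 290.5 (log2 -1.87), and Taf9, with 1367 ± 181 beside 2946 ± 857 (log2 -1.11). Tbp itself was lower in Nlrp5-/- NSN oocytes without overlap, with 892 ± 20.4 beside 1246 ± 243 (log2 -0.48), as were 3.14% of all genes. Taf8 at the NSN stage was the highest of the list at 0.54, and Gtf2a1l at the SN stage at 0.76. Among the partners and pluripotency factors, Zfp42 was past 2-fold at the NSN stage (log2 -1.21), 1 of 12, and Tcf4 at the SN stage (log2 -1.21), 1 of 11, beside the same shares of all genes, the former with 8.87 ± 6.01 and the latter with 14.9 ± 3.70 normalized counts in Nlrp5-/- oocytes. Zfp42 was below the filter in Nlrp5-/- oocytes and passed it only through the Nlrp5+/+ oocytes, so its call follows in part from the filter. Among the 15 dependent oocyte genes none was past 2-fold at either stage. Zp1 and Gdf9, encoding a zona pellucida protein and an oocyte growth factor, were higher in Nlrp5-/- NSN oocytes without overlap (log2 0.71 and 0.46), as were 3.96% of all genes, and Oosp1, which is also a stage marker, was lower without overlap (log2 -0.75). Some of these values rested on single cells. Gtf2a2 at the SN stage was -1.45 without oocyte 7 and -2.47 without oocyte 31. At the NSN stage it was -0.85, and it was past 2-fold without oocyte 87 (-1.02) and without regard to stage (-1.41). Tbpl1 was -0.54 without oocyte 79 and -0.90 without oocyte 13, Zfp42 was -0.91 without oocyte 30, Taf9 was -0.97 without oocyte 77 and -0.98 without oocyte 7, and Tcf4 was -0.60 without oocyte 85 and -0.99 without oocyte 31. The same calls were lost under other settings. Without regard to stage, which includes oocyte 15, Tbpl1 was -0.38, Zfp42 -0.77, Taf9 -0.78 and Tcf4 0.47, the last with a change of sign. Zfp42 was -0.96 with a pseudocount of 5, Taf9 was -0.95 with pooled sums, and with medians over oocytes Tbpl1 was -0.58 and Tcf4 -0.50.

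The genes most like each member over the 33 oocytes were found by the Pearson r of log2 normalized counts among 8436 genes with a mean of at least 100. The points share library depth, genotype and stage, so r after subtraction of the group means is given beside it. For Tbpl2 they were Ublcp1 (r = 0.90, within groups 0.69), Dr1 (0.89 and 0.61) and Armc1 (0.88 and 0.66). Dr1 encodes a subunit of the NC2 complex that binds TBP. For Taf4b they were Hsph1 (0.90 and 0.75), which is one of the stage markers, Abcd3 (0.88 and 0.76) and Kdm1b (0.86 and 0.69), an oocyte histone demethylase gene. For Nobox they were Rpusd4 (0.84 and 0.65), Ppif (0.84 and 0.67) and the homeobox gene Noto (0.83 and 0.68). For Figla they were Gstt2 (0.90 and 0.91), Tm2d3 and Avpi1, and for Lhx8 Arf1 (0.78 and 0.82), Mtpap and Tsg101. After Gm19553, Pou5f1 was most like Mus81 (0.88 and 0.87) and Flad1, and Sohlh2 had no r above 0.67. Between the members themselves, over the 21 pairs of the 7 members above the filter, r within groups ran from -0.63 to 0.37 with a median of -0.0041.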

How the data were processed

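RNA of 33 single GV oocytes was measured by a Smart-seq2-based protocol after separation from DNA (G&T-seq). The authors trimmed reads with Trim Galore and aligned them with HISAT2, in versions not given in the sources used here, and deposited a table of the raw read count of each gene in each oocyte. Libraries of low read number had been left out by the authors. The methods name GRCm39, whereas the table carries GRCm38 coordinates, which are printed here. Of 35373 entries, 52 repeats were left out. The table of read totals and the authors' tables of called genes, which hold fold changes and p-values, were not used.

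Counts were divided by median-of-ratios size factors over all 33 oocytes (11845 genes with a count in each) and averaged with equal weight. Log2 fold changes carry a pseudocount of 1, and shares of all genes refer to those with a mean of at least 10 normalized counts over the oocytes compared. Genotype came from the labels and stage from the study's heatmap. Neither a p-value nor an SE was derived, because the labels name no mouse. Depth was 4223595 to 15573360 counts. Poisson intervals (95%) and limits of 3 counts cover counting error only and leave out the spread between oocytes and mice. They take reads as independent, which amplified reads counted without molecular identifiers are not, so they can be too narrow. The members, lists and rules were chosen with earlier results of these data known. All 8 members are named. From the lists of core promoter genes, partners and dependent oocyte genes, the 2 highest and 2 lowest log2 fold changes of Nlrp5+/+ SN over NSN and of Nlrp5-/- over Nlrp5+/+, and those past 2-fold, were eligible to be named. Tbp, Taf4, Tcf3, Zp1 and Zp3 outside these ranks, Gm19553, and the granulosa markers low in Nlrp5+/+ oocytes were chosen after their values were seen. Lengths came from GENCODE M39 by Ensembl ID (8 of 8 matched) and promoters from RefSeq (7 matched). Calculations were tested on simulated counts with 200 changed genes. The software was matplotlib 3.10.9 for plots and, for calculation, scipy 1.17.1, pandas 2.3.3 and numpy 2.4.6 under Python 3.11.15.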

Additional observations from a re-analysis of the deposited data

Results flagged for a closer look

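Within groups of 4 to 10 oocytes, 38 sets of values of the 8 genes were examined, and in 3 of them 1 oocyte lay far from the others. For normally distributed values about 1 set in 20 would be picked out by chance. A single value above 0 among values of 0, as for Sohlh1 in oocyte 38, is always picked out. Lhx8 in Nlrp5+/- NSN oocyte 61 had 2229 normalized counts, beside a median of 1369 in its group. That oocyte also had 328 CPM on 9 theca and interstitial markers, the highest of the Nlrp5+/- oocytes, and the fewest genes with a count of all 33 libraries, 14838, beside 16324 in the next. Their part in the Lhx8 value was not tested. Tbpl2 in Nlrp5+/- SN oocyte 55 had 208, beside a median of 98.3. Sohlh1 in Nlrp5+/- SN oocyte 38 had 3.07, beside 0 in the other 6. Outside the comparisons by stage, Sohlh1 had 6.72 normalized counts in Nlrp5-/- oocyte 15, which has no stage, beside 0 in all 10 Nlrp5+/+ oocytes. That library also had the highest sum over the 16 granulosa markers, at 1637 CPM, and over the theca and interstitial markers, at 695 CPM. The part of these in its Sohlh1 count was not tested.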

How the results depend on the processing

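Values were recomputed with other scalings, pseudocounts, filters and sets of oocytes. Of 552 values of whole comparisons and lists 503 moved little and 49 moved, and of 2120 values of single genes 34 moved and 1 reversed. A log2 value moved little if it shifted by less than the SD between oocytes. It counted as reversed only if it was past 2-fold and changed sign. Smaller values could thus change sign and count as moved little, as Figla did in Nlrp5-/- over Nlrp5+/+ NSN oocytes, from 0.40 to -0.26. The filters cannot change the log2 value of a single gene. The comparisons are given in the order SN over NSN in Nlrp5+/+, Nlrp5+/- and Nlrp5-/-, then Nlrp5-/- over Nlrp5+/- and Nlrp5-/- over Nlrp5+/+ and Nlrp5+/- over Nlrp5+/+, each at the NSN and then the SN stage. The genes past 2-fold numbered 1736, 1257, 2043, 900, 1188, 1126, 1344, 428 and 259. With no filter they were 4587, 3549, 5561, 3617, 4213, 4374, 4441, 2801 and 2070, and with a minimum mean of 100 they were 418, 248, 455, 129, 245, 170, 297, 30 and 5. The cause was not tested. For Nlrp5+/- over Nlrp5+/+, a pseudocount of 5 gave 254 and 144, medians over oocytes gave 416 at the SN stage, and all oocytes without regard to stage gave 138. With single oocytes left out the count ran from 2004 to 3208 for SN over NSN in Nlrp5-/-, from 1150 to 2721 and from 1308 to 2684 for Nlrp5-/- SN oocytes over Nlrp5+/- and Nlrp5+/+, in each case highest without oocyte 31, and from 345 to 680 for Nlrp5+/- over Nlrp5+/+ NSN oocytes, highest without oocyte 87.

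Of the members, 2 were past 2-fold with no filter in Nlrp5+/- and 2 in Nlrp5-/- SN over NSN, in place of 1, and 1 in place of 0 in Nlrp5-/- and in Nlrp5+/- over Nlrp5+/+ NSN oocytes, since Sohlh1 then entered. For Nlrp5+/- over Nlrp5+/+ SN oocytes Sohlh2 was past it with size factors within the comparison, total counts or medians, which made 1 in place of 0. Without oocytes 7, 13 and 14, a choice made after the data were seen, Sohlh2 was past it for Nlrp5-/- over Nlrp5+/- SN oocytes, which again made 1. An unchanged count could hold other genes. For SN over NSN in Nlrp5+/+ with medians, Sohlh2 was -1.11 and Taf4b -0.96. In Nlrp5-/- without oocytes 7, 13 and 14, Sohlh2 was -1.61 and Tbpl2 -0.89. With single oocytes left out the count ran from 1 to 3 for SN over NSN in Nlrp5+/+ (1 without oocyte 79, 3 without oocyte 69 or 87), from 1 to 2 in Nlrp5-/-, from 0 to 1 for Nlrp5-/- over Nlrp5+/- SN and over Nlrp5+/+ NSN oocytes, from 0 to 2 for Nlrp5-/- over Nlrp5+/+ SN oocytes, and from 0 to 1 for Nlrp5+/- over Nlrp5+/+ SN oocytes. Oocyte 61 counted as SN, also chosen later, took the members' median of SN over NSN in Nlrp5+/- from -0.60 to -0.24. Tcf4 in Nlrp5-/- over Nlrp5+/+ went from -1.21 in SN oocytes to 0.47 without regard to stage, and the cause was not tested. Total count scaling took the median of all genes for SN over NSN in Nlrp5+/+ from 0.03 to -0.08. No fit with a block was made, since no test was run, and stage differences within libraries that share a first index stand with the results. Sohlh1 had 61 counts over all 33 oocytes, the fewest of the members.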
